A study of Mus musculus with 24 samples.

Results

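A set of 1957 windows of 100 bp with 3 to 5 CpG dinucleotides kept part of their DNA 5-methylcytosine (5mC) signal in Tet2-KO mES cells. They were taken from the 14279 windows listed for the comparison of Tet2-KO with WT mES cells, of which 8026 lie on chromosomes 2 to 11, 13, 14 and 16 to 19, hereafter the 16 chromosomes. On these chromosomes 6103 listed windows had a lower mean signal in Tet2-KO cells, and in 4656 of them at least 1 Tet2-KO library still held more than 3 reads. The members described here were chosen by these counts, by the direction of the mean difference and by a CpG number of 3 to 5, and are the part of those 4656 with intermediate CpG density. The other 830 had 0 to 2 CpG and 1869 had 6 or more. Adjacent windows were joined, which gave 1526 separate regions.

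5mC is placed on cytosine, mostly in CpG, by the DNA methyltransferases DNMT3A and DNMT3B and is copied at replication by DNMT1 together with UHRF1. TET enzymes oxidize 5mC as a step of its removal, and TET2 also acts on 5-methylcytosine in RNA. In mouse embryonic stem cells, 5mC is known for silencing endogenous retroviruses and young LINE-1 elements, for marking 1 parental copy of imprinted control regions, and for covering the promoters of germline genes. MeDIP–seq, in which sheared genomic DNA is pulled down with an antibody against 5mC and sequenced, reads the amount of methylated DNA per window and not the methylation of single cytosines. It needs several methylated CpG close together, so CpG-poor windows are captured weakly. Where methylated, windows of intermediate CpG density lie between these and CpG-dense sequence.

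The 4 groups of the Tet2 experiment were WT and Tet2-KO mES cells, each transfected with a negative control siRNA (siNC) or an siRNA against Nsun2 (siNsun2), which encodes an RNA m5C methyltransferase. A separate experiment compared WT and Pspc1-KO mES cells, with immunoprecipitated (IP) and input libraries. PSPC1 is a paraspeckle RNA-binding protein. Cells were grown with serum, LIF, the GSK3 inhibitor CHIR99021 and the MEK inhibitor PD0325901, and feeder cells were removed by passage on gelatin. Each group had 3 libraries. The WT and Tet2-deficient lines were received from another laboratory, the number of clones behind each line was not given in the sources used here, and neither do the labels say whether the 3 libraries of a group came from separate cultures. The p-values below therefore measure the spread between libraries only. Reads of genomic DNA carry no expression, so the ES cell identity of the lines could not be checked with marker genes here.

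Library totals recovered from the tables were 8922563 to 15353431 reads in the siNC groups of the Tet2 experiment and 20363180 to 39810919 reads for the IP libraries of the Pspc1 experiment. At 5 listed windows within Tet2 (chr3:133487401-133487900, build mm10) the WT libraries held 62, 83 and 78 reads and each Tet2-KO library held 0 reads, in the direction of the genotype labels. Replicates 2 and 3 differed by less than the sampling noise in the Tet2-KO siNC group (chi-square per degree of freedom 0.958) and in the WT siNC group (0.953), whereas replicate 1 differed from both. Replicates 2 and 3 were therefore averaged and counted as 1 sample in group means, so n = 2 for both groups. Inputs for the Tet2-KO and WT siNC libraries were not analysed here, and in bulk DNA a lower signal in every cell cannot be told apart from a full loss in some cells or from fewer genomic copies of a window.

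The sequences that carry the results below show how different the windows are. CpG dinucleotides are in capitals and all sequences are read 5′ to 3′ on the plus strand of mm10. The first set comes from single-copy DNA, that is, windows whose middle 32 bases occur once in the reference genome. It holds 3 adjacent intronic windows of the imprinted gene Mest (chr6:30736801-30737100), a window of Gnas outside its exons (chr2:174300301-174300400), a window just after the start of the meiotic gene Sycp3 (chr10:88460001-88460100), and a pair of adjacent windows in an intron of Plpp1 (chr13:112846701-112846900), the region of highest WT level among those of at least 2 windows with a median of 1 copy.
Mest: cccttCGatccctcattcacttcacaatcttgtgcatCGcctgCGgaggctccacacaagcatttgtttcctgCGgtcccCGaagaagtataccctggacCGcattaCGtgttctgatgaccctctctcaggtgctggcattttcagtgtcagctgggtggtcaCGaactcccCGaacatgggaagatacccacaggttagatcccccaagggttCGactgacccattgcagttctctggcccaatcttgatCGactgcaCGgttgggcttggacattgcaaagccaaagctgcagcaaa
Gnas: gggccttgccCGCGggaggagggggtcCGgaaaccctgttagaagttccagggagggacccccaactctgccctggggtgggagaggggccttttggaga
Sycp3: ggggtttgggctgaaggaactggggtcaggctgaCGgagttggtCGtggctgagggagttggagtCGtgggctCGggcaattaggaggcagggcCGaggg
Plpp1: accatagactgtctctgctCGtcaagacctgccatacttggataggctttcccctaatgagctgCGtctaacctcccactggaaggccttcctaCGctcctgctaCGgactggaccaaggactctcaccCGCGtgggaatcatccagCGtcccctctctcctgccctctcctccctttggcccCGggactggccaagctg

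The second set shows tandem arrays, in which a short unit follows itself. It holds the first 200 bases of the longest region, in an intron of Bfar (chr16:13695301-13695500), 1 window of a region in an intron of Uggt2 (chr14:119080701-119080800), and 1 window of an unannotated array that holds the strongest signals of all members (chr4:118547801-118547900). Over the whole 800 bases of the Bfar region, 99.0% of positions equalled the base 30 positions further on, and over the 600 bases of the Uggt2 region 98.6% equalled the base 35 positions further on. The unit of the chromosome 4 array was 44 bases with 79.4% identity. In the printed Bfar and Uggt2 stretches the CpG recur at the spacing of the unit.
Bfar: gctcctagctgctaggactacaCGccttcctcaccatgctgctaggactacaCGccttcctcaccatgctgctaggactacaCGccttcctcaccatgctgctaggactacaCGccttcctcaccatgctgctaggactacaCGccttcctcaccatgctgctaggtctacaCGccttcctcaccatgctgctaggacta
Uggt2: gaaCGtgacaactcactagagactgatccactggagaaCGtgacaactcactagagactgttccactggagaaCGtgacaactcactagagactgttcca
Chromosome 4 array: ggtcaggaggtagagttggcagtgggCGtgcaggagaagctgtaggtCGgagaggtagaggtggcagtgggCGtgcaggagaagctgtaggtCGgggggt

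The third set shows dispersed and clustered repeats, 1 window for each of 5 groups of members that share a 32-base sequence (described below). The windows are the members of groups 1, 2, 3, 4 and 8 with the highest WT level outside exons, at chr5:98043501-98043600, chr13:23645801-23645900, chr8:20946201-20946300, chr6:114561101-114561200 and chr8:123600701-123600800.
Group 1: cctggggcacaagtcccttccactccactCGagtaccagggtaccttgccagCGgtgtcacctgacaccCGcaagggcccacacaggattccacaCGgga
Group 2: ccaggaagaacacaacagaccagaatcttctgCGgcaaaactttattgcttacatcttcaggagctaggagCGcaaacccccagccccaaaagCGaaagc
Group 3: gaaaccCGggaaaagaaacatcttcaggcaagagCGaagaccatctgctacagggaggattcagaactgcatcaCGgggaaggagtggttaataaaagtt
Group 4: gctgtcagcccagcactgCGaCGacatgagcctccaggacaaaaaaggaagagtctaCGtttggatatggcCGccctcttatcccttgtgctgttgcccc
Group 8: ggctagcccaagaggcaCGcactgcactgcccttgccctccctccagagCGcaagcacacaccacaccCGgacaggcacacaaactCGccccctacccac

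The first question was how much 5mC signal these windows kept. The Tet2-KO and WT siNC counts chose the members, so their difference is given as a description without a test. The median RPKM (a read count corrected for window length and sequencing depth) over the 1957 windows was 31.2, 29.4 and 29.3 in the 3 WT libraries and 6.72, 7.11 and 7.05 in the 3 Tet2-KO libraries. In each of the 1957 windows all 3 Tet2-KO libraries lay below all 3 WT libraries, against 83.1% of all 14279 listed windows in the same direction, a separation that the selection itself required in large part. The median window kept 23.9% of its WT signal, with quartiles of 17% and 33.9% and a range of 3.12% to 73.5%. The median log2 fold change was -2.05, beside -2.03 over all listed windows on the 16 chromosomes and -2.60 over the whole list. These values are relative to whole libraries. Scaled to the listed windows themselves (edgeR TMM), the median was -0.17 and the signal summed over members was 159% of WT, in the other direction. Among the 1957, 1050 windows kept less than 25% of the WT signal and 116 kept more than 50%.

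Windows with a strong WT signal mostly kept a larger share than the median window. Summed over all members, Tet2-KO signal was 42.5% ± 3.14 of WT (SD over samples, n = 2), well above the 23.9% of the median window. A few windows carried much of that sum. Without the 14 windows of the chromosome 4 array, the summed share was 35.9%. The pattern had many exceptions, and in the highest of 4 equal classes by WT level 76 of 489 windows (15.5%) kept less than 25%. Among them were windows of a region in Washc2 (chr6:116242101-116242500), a gene of the endosomal WASH complex. Its 4 windows averaged 213, 271 and 278 RPKM in the WT libraries and 43.1, 38.7 and 34.9 RPKM in the Tet2-KO libraries, which is 16.4%. The relative methylation score, a CpG-normalized value in the deposited files that ran from 0 to 1, had medians of 0.467 in WT and 0.327 in Tet2-KO cells over the members. It is made from the same counts that chose them, so its direction was largely fixed by the choice.

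**Figure D1:**
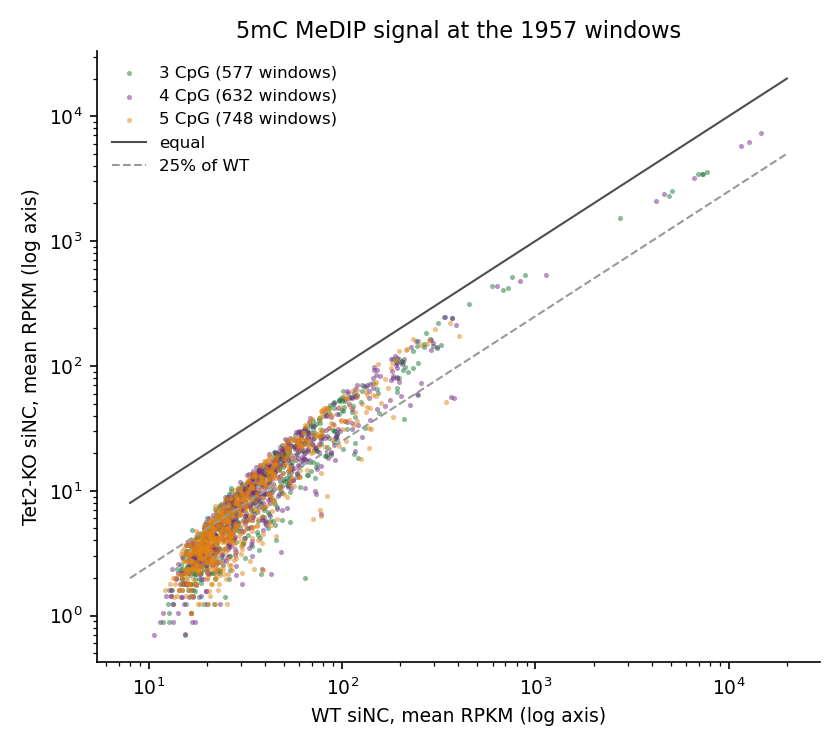
Mean RPKM of each of the 1957 windows in WT siNC (x) and Tet2-KO siNC (y) libraries, both on log axes, coloured by the number of CpG. The solid line marks equal signal and the dashed line 25% of WT. All windows lie below the solid line, and the windows of the chromosome 4 array, at the upper right, lie above the dashed line.

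Windows at the limits of the rule did not stand apart from those just beyond it. Among windows with 3 to 5 CpG, the 174 whose highest Tet2-KO count was 4 kept a median of 12.9% of WT signal (17 RPKM in WT), and the 187 left out because their highest count was 3 kept 10.6% (15.7 RPKM in WT). The 474 partly hypomethylated windows with 2 CpG kept a median of 25.3%, close to the 25.8% of the 577 members with 3 CpG. The 685 with 6 CpG kept 19.7%, beside 21.8% in the 748 members with 5 CpG.

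CpG number within the set was accompanied by small differences in the median share. Members with 3, 4 and 5 CpG numbered 577, 632 and 748 and kept medians of 25.8%, 25% and 21.8%. Summed over windows, they kept 44.3%, 44.6% and 31.8%, or 39.5%, 35.9% and 31.8% without the chromosome 4 array. Their WT levels also differed, with medians of 34.9, 33.6 and 25.7 RPKM. Split into 4 equal classes by WT level, the windows of the lowest class kept a median of 16.5%, followed by 21.4%, 30% and, in the highest class, 40%. Within a class, windows with 3 and 5 CpG lay close together, at 15.7% and 17.3% in the lowest class and at 41.7% and 38.9% in the highest. The list holds only windows that passed a significance limit of the authors, so a window with a low WT level could enter only with a large loss. How far this sets the order of the classes was not tested.

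**Figure D2:**
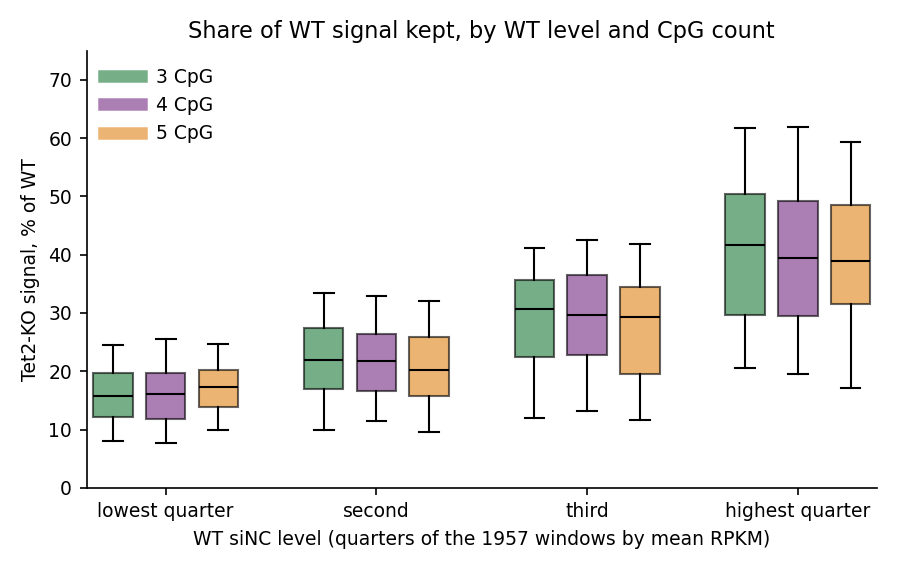
Tet2-KO signal as a percentage of WT (y) for the 1957 windows in 4 equal groups by WT level (x) and by number of CpG (colours). Boxes show quartiles with the median, and whiskers the 5th and 95th percentiles. Over all CpG numbers the median is 16.5% in the lowest and 40% in the highest class, with 3, 4 and 5 CpG at similar heights within each class.

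The windows lay mostly in repeated sequence. Of the 1957 windows, 1340 (68.5%, 95% Wilson interval 66.4 to 70.5) had at least 50% of their bases soft-masked in the reference, the lower-case marking of repeats. Among all 1391794 windows of the reference with 3 to 5 CpG on the same chromosomes the share was 21.9%. The share increased with CpG number, from 52.7% with 3 CpG through 66.3% with 4 to 82.5% with 5. It was 44.2% in the partly hypomethylated windows with 0 to 2 CpG and 78.6% in those with 6 or more. The intervals cover counting error only, and windows of 1 region are not independent.

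Copy number in the reference followed the same order. A total of 519 members (26.5%, interval 24.6 to 28.5) were single-copy, against 52.3% of the CpG-poor and 19.4% of the CpG-dense windows with partial loss, 37.7% of the windows at the read floor (no Tet2-KO library above 3 reads), and 39.1% of the windows with higher signal in Tet2-KO cells. At the other end, 715 members had more than 100 copies. The share kept did not follow copy number in one direction. Single-copy members kept a median of 23.7%, those with 2 to 10 copies 29.7%, those with 11 to 100 copies 29.4% and those with more than 100 copies 19.9%. The aligner placed a read that matched several copies at 1 of them, so the signal of a multi-copy window is shared with its copies.

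Members were seldom in exons. They lay outside annotated genes in 57.3% of cases, against 39.8% of the reference windows with 3 to 5 CpG, and overlapped an exon in 8.28%, against 15.8%. A transcription start lay within 1 kb of 220 members (11.2%), against 13.5% of the reference windows. Single-copy members differed from the others in this respect, with 21.6% in an exon compared with 3.48% of the multi-copy members. The hexamer TGCCGC, the methylated sequence bound by the imprint-keeping zinc-finger protein ZFP57, was searched on both strands and found in 74 members (3.78%) and in 3.18% of the reference windows with 3 to 5 CpG.

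**Figure D3:**
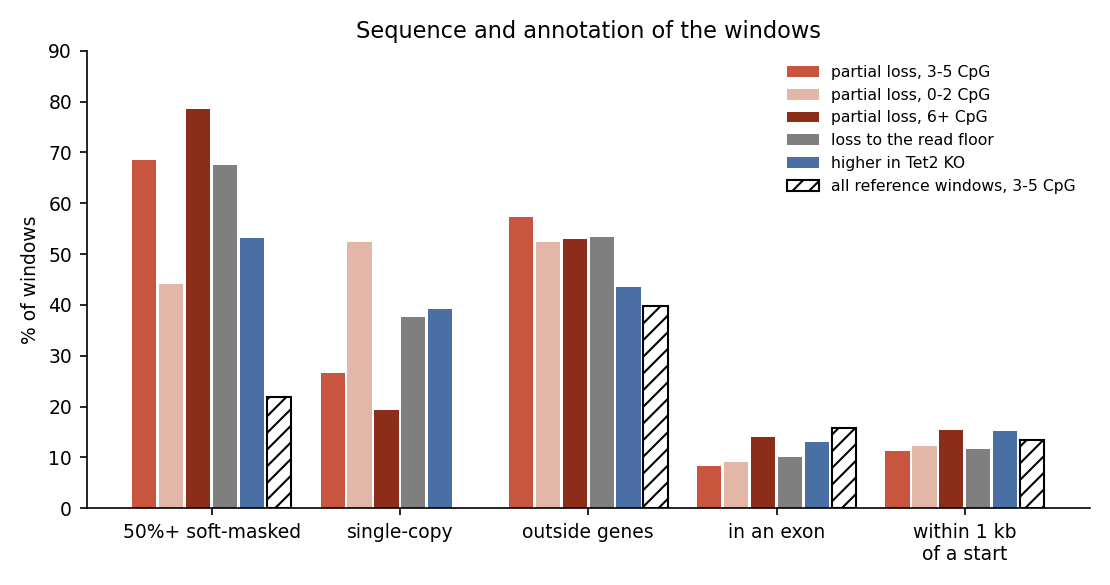
Percentage of windows (y) with each sequence or annotation feature (x) for the 1957 windows with 3 to 5 CpG, the 4 other classes of listed windows on the same chromosomes, and all reference windows with 3 to 5 CpG (hatched, copy number not computed). The members are soft-masked in 68.5% and single-copy in 26.5%, both between the CpG-poor and the CpG-dense windows with partial loss.

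Shared sequence sorted the repeats into a small number of large groups. When members that share any 32-base sequence on either strand were joined, 1365 windows (69.7%) had at least 1 partner, and 14 groups of 10 or more windows held 1129 of them. Each group is described by the oligonucleotides that the study designed against repeat families, where one matches within 500 bp of members.

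Group 1 was the largest, with 644 windows in 567 regions on all 16 chromosomes and a median of 1746 copies in the reference. Of these windows 381 had 5 CpG. The L1MdA oligonucleotides, which target a young LINE-1 subfamily, matched within 500 bp of 65 of them. Mean RPKM was 23.5, 20.6 and 20.4 in the WT libraries and 4.42, 4.00 and 3.96 in the Tet2-KO libraries. These libraries did not overlap, as at every member. The median window kept 17.9%, the lowest of the 14 groups after group 10 (17.5%, 15 windows).

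Group 2 held 137 windows on all 16 chromosomes, and IAPEz-int oligonucleotides matched within 500 bp of 88. IAPEz elements are endogenous retroviruses that transpose in the mouse and are silenced by 5mC and H3K9 methylation. Mean RPKM was 43.0, 41.2 and 42.0 in the WT libraries and 13.4, 13.8 and 13.3 in the Tet2-KO libraries. The median window kept 29.4%.

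Group 3 held 86 windows, and RLTR10 oligonucleotides matched within 500 bp of 33. RLTR10 is a long terminal repeat of an ERVK retrovirus family. Its WT libraries averaged 105, 99.1 and 104 RPKM, higher than in groups 1 and 2, and its Tet2-KO libraries 46.6, 46.1 and 45.7 RPKM. The median window kept 40.3%. Median WT levels of groups 1, 2 and 3 were 20.6, 36.9 and 81.0 RPKM, in the order of their shares kept. RLTR10 oligonucleotides also lay near 13 of the 15 windows of group 10 and 7 of the 13 of group 12, which had median WT levels of 36.9 and 96.1 RPKM and kept medians of 17.5% and 50.5%. Group 10 thus equalled group 2 in median WT level and lay below it in median share, while the summed shares of groups 10 and 2 were close, at 30.7% and 31.9%.

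Over all members, IAPEz-int oligonucleotides matched within 500 bp of 139 windows (7.10%), L1MdA oligonucleotides of 67 (3.42%) and RLTR10 oligonucleotides of 65 (3.32%), with medians of 31.3%, 20.8% and 38.6% of WT signal. IAPEz-int oligonucleotides lay near 3.49% to 8.13% of the 3 other classes of lower windows and near 4.84% of the 1923 windows with higher signal in Tet2-KO cells, which is within that range. For RLTR10 these shares were 1.98% to 3.01% and 11.9%, and for L1MdA 1.61% to 4.34% and 0 windows. The differences between classes were not tested, and windows near the same element are not independent. Each of the other oligonucleotide families lay near 15 members or fewer.

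Taken over all members, tandem arrays had a higher WT level and kept a larger share than the rest. A member was counted as tandem where at least 80% of its positions equalled the base 2 to 50 positions further on, a limit chosen after the sequences were seen. This held for 92 members (4.70%) on 13 chromosomes, beside 8.31% and 5.35% of the CpG-poor and CpG-dense windows with partial loss. Tandem members had a median WT level of 180 RPKM and kept a median of 42.3%, against 28.8 RPKM and 23.5% in the 1865 others. Among the 116 members that kept more than 50%, 29 (25%) were tandem, against 3.42% of the 1841 others. Within the highest class of WT level the medians were 45.6% for 81 tandem windows and 39.3% for 408 others, whereas in the class below they were 29.8% for 9 tandem windows and 30% for 480 others. The member that kept least of all, with 3.12%, was also tandem. Among the windows at the read floor, the 117 tandem windows kept a median of 0.176% and the others 5.22%. Of the 92 tandem members, 75 were less than 50% soft-masked, so the soft-masked share above leaves out most of them. Only 12 were single-copy, and 58 lay in groups of 2 or more windows with shared sequence.

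The longest member region was such an array. In the 8 windows within Bfar, which encodes an apoptosis regulator of the endoplasmic reticulum, WT libraries averaged 714, 686 and 662 RPKM and Tet2-KO libraries 467, 421 and 415 RPKM. As at every member the groups did not overlap, and 63.7% was kept. In the 6 windows within Uggt2, a glucosyltransferase of glycoprotein folding, WT libraries averaged 240, 227 and 249 RPKM and Tet2-KO libraries 95.4, 125 and 98.2 RPKM, which is 43.4%. Of the 7 windows in Pigf, which acts in GPI-anchor synthesis, 6 were tandem, and the windows kept a median of 54.9%. A region of 4 windows in an exon of Pigk (chr3:152786401-152786800), a subunit of the GPI transamidase, had a unit of 30 bases with 99.7% identity and kept 71.0%, with 323, 307 and 309 RPKM in WT and 223, 231 and 220 RPKM in Tet2-KO libraries. A pair of windows 1 kb or less from the start of Cartpt (chr13:99901901-99902100), a neuropeptide gene, had a unit of 26 bases with 100% identity and kept 51.7%.

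The unannotated array on chromosome 4 (14 member windows between chr4:118547101 and chr4:118548800) had the highest signal. Its WT libraries averaged 6596, 7387 and 7268 RPKM and its Tet2-KO libraries 3080, 3705 and 3778 RPKM. The median window kept 49.1%, and the share differed between the Tet2-KO libraries, at 44.2%, 53.2% and 54.3% of the WT mean.

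Members were unevenly placed along the genome. Chromosome 13 held 355 (18.1%) and chromosome 6 held 306 (15.6%), which is 446 and 341 members per 100000 reference windows with 3 to 5 CpG. The other 14 chromosomes ranged from 43.4 on chromosome 11 to 251 on chromosome 17. In steps of 1 Mb, 606 bins held a member and 250 of these held a single one, while 19 bins with 10 or more held 599 members (30.6%).

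The 3 fullest bins held 298 members of different make-up. The bin at 114 to 115 Mb of chromosome 6 held 120 members, 1 of them single-copy, and groups 4 and 5, with 48 and 35 windows, lay on chromosome 6 alone. WT libraries averaged 65.5, 56.6 and 56.5 RPKM there and Tet2-KO libraries 19, 18.2 and 17.3 RPKM. The bin at 123 to 124 Mb of chromosome 8 held 84 members, none single-copy and 82 of them soft-masked. The gene model Gm20388 overlaps this bin and holds 85 members, 0 of them in exons, with 41.7, 39.9 and 42.5 RPKM in WT and 11.8, 12.8 and 14.1 RPKM in Tet2-KO libraries. Both are clusters of locally repeated sequence, and their median windows kept 29.5% and 30%.

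The third stretch was single-copy. The bin at 113 to 114 Mb of chromosome 13 held 94 members, 70 of them single-copy, and the neighbouring bin at 112 to 113 Mb held 57, with 51 single-copy. From 112 to 118 Mb, an interval drawn after the bins were seen, there were 214 members, 161 of which were single-copy. These make up 31% of the 519 single-copy members. Of the 513 listed windows in this interval, 508 (99.0%) were lower and 5 were higher in Tet2-KO cells, beside 76.0% lower among all 8026 listed windows on the 16 chromosomes. Over its 214 members the Tet2-KO libraries held 28.4%, 27.5% and 28.2% of the WT mean. Whether the number of copies of this stretch differed between the lines was not tested.

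The interval on chromosome 13 holds several genes with many members. Dhx29, a helicase of translation initiation, had 16 members, all single-copy and 5 in exons, with 28.8, 28.7 and 30 RPKM in WT and 4.62, 4.67 and 6.83 RPKM in Tet2-KO libraries (median kept 18.9%). Slc38a9, a lysosomal arginine sensor of the mTORC1 pathway, had 10 members, 8 in exons, which kept a median of 19.3%. Plpp1, a lipid phosphate phosphatase, had 7 members with 78.2, 72.2 and 74.3 RPKM in WT and 19.9, 11.3 and 17 RPKM in Tet2-KO libraries. In all of these genes, as at every member, the WT and Tet2-KO libraries were separate. Gzmk, a granzyme gene, had 7 members with a median of 22.8%, and BC067074 had 20 with 24.6%. Arl15, a small GTPase gene, had 8 single-copy members and kept more, with 46.2, 50.9 and 50.4 RPKM in WT and 22.4, 19 and 18.7 RPKM in Tet2-KO libraries (median 41.0%). Outside the interval on the same chromosome, Naip1, an inflammasome receptor gene, had 10 members with a median of 24.9%.

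In all, 407 of the 43453 annotated genes on the 16 chromosomes held a member (0.937%), as did 307 of the 18171 protein-coding genes (1.69%), and 47 genes held 5 or more. The gene lists were chosen with earlier results of these data known, and counts are descriptions. Imprinted genes were the list with most members. Of 35 imprinted genes on the 16 chromosomes, 21 had a listed window and 6 had a member (Mest, Gnas, Inpp5f, Grb10 and the overlapping pair Zrsr1 and Commd1), or 17.1%. With the same limits, the gene and 2 kb before its start, 1.12% of all annotated genes and 1.74% of protein-coding genes had a member. None of the listed windows of these imprinted genes was higher in Tet2-KO cells, where 24.0% of the 8026 listed windows on the 16 chromosomes were. Their listed windows comprised 19 members, 8 CpG-poor and 40 CpG-dense windows with partial loss, and 108 windows at the read floor. The last are 61.7% of their listed windows, beside 18% of the 8026. Peg10, for example, a retrotransposon-derived imprinted gene, had 26 windows at the floor and 0 members.

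Mest, a paternally expressed hydrolase gene, held the most members of the imprinted list, 9 single-copy windows between chr6:30736801 and chr6:30738900, 2 of which overlapped an exon. Averaged over the windows, WT libraries had 37.1, 34.7 and 37 RPKM and Tet2-KO libraries 7.22, 5.85 and 4.55 RPKM. The groups were separate, as at every member, and the windows kept a median of 17.3%, from 9.23% to 30.2%. The exonic window at chr6:30738001-30738100 had the highest WT level, 88.5, 56.4 and 73.6 RPKM, and the lowest share, with 6.72, 9.95 and 4.94 RPKM in Tet2-KO libraries. These shares rest on 6, 14 and 7 reads. Mest had 8 CpG-dense and 4 CpG-poor windows with partial loss besides, and 0 at the floor.

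Gnas, which encodes the stimulatory G protein alpha subunit and has several imprinted starts, had 5 single-copy members between chr2:174298301 and chr2:174301000. WT libraries averaged 26.9, 28.1 and 25 RPKM and Tet2-KO libraries 3.58, 4.69 and 4.51 RPKM. Gnas also had 18 CpG-dense windows with partial loss and 4 at the floor. At Inpp5f, a phosphoinositide phosphatase gene, 2 members kept 12.1% and 12.3%, and here WT replicate 1 stood apart, at 9.54 RPKM in the first window against 37.6 and 27.4 RPKM in the other WT libraries. The 2 members at Grb10, a growth-restraining adaptor gene, kept 13% and 14.7%, and the single member shared by Zrsr1 and Commd1 kept 8.33%. The members of the imprinted list kept from 8.33% to 30.2%, and only the pair at chr6:30737201-30737400 in Mest, at 29.4% and 30.2%, lay above the median of all members.

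Of 19 germline genes, 2 (10.5%) had a member. At Sycp3, which encodes a component of the synaptonemal complex, the window 482 bp after the gene start had 49.4, 60.2 and 52.1 RPKM in WT and 22.4, 23.5 and 30.3 RPKM in Tet2-KO libraries, so 46.7% was kept, more than at any member window of the imprinted list. Its libraries did not overlap, which holds for every member. At Ddx4, an RNA helicase gene of germ cells that lies in the chromosome 13 interval, 2 members kept 20.1% and 13.6%. Of 12 genes of the DNA methylation machinery, 14 pluripotency genes and 7 genes of the RNA m5C and H2A deubiquitination axis of the study on these chromosomes, 0 had a member. The Zfp family of zinc-finger genes had 9 genes with members out of 367 (2.45%), holding 33 windows with a median of 36.9%. In Zfp986 the 9 members had 70.6, 67.2 and 68.5 RPKM in WT and 24.7, 28.0 and 19.8 RPKM in Tet2-KO libraries, and in Zfp981 the 8 members had 102, 96.9 and 91.8 RPKM and 44.4, 47.1 and 47.0 RPKM. Both genes belong to a cluster on chromosome 4 with near-identical copies, and 1 and 2 of these windows were single-copy in Zfp981 and Zfp986. Zfp787, on chromosome 7, lay at the other end, with 5 members at a median of 10.9%. Member windows lay in 2 of 1092 protein-coding olfactory receptor genes (0.183%), 3 of 328 vomeronasal receptor genes (0.915%) and 22 of 67 protocadherin genes (32.8%, 21 by symbol because Pcdha11 is annotated 2 times), and with pseudogenes the families held 4, 8 and 11 windows. The protocadherin genes overlap, and 1 window can lie in several of them.

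**Figure D4:**
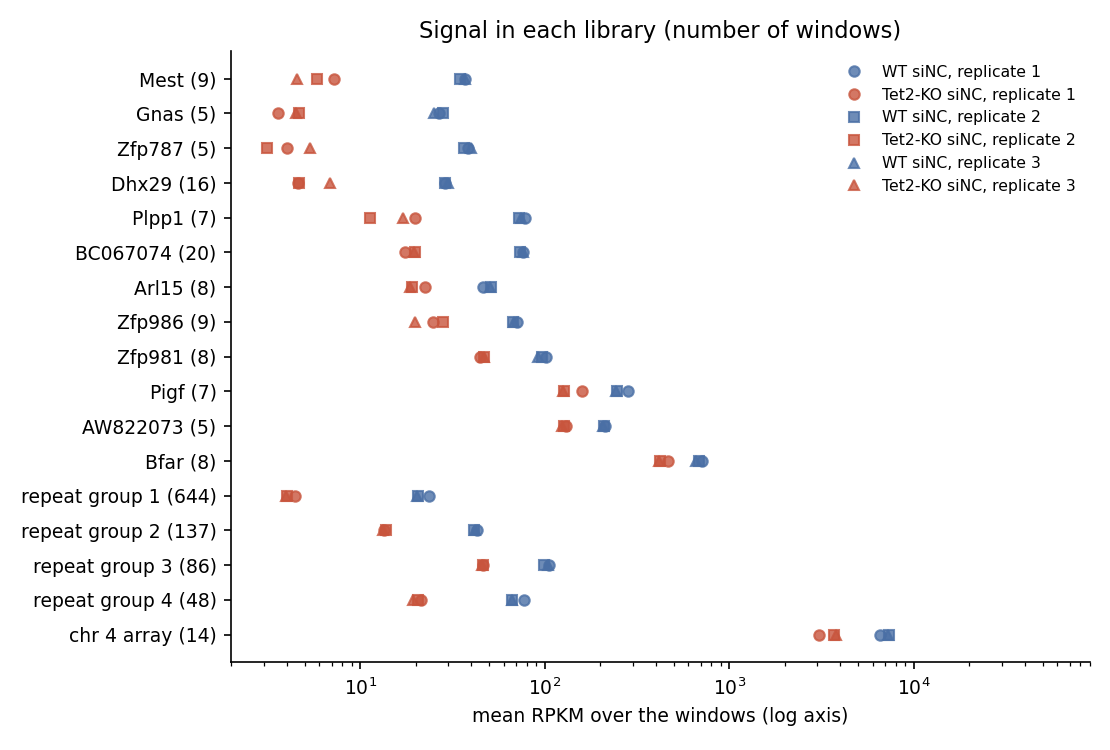
Mean RPKM over the member windows of named genes, repeat groups and the chromosome 4 array (x, log axis), 1 symbol per library, WT siNC in blue and Tet2-KO siNC in red, with the number of windows in brackets. WT and Tet2-KO libraries are separate on every line, as at every member window. The median window of Mest kept 17.3% of WT and that of Bfar 64.1%.

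Single-copy windows that were well covered in WT had a wide range too. Of the 325 single-copy members with at least 30 reads in every WT library, 71 (21.8%) were at least 50% soft-masked, so these windows are not free of repeats. The 4 that kept least were at chr17:41316001-41316100 (5.88%, 65% soft-masked), in an exon of Zfp787 (chr7:6132601-6132700, 6.73%), in an intron of Tshz2 (chr2:169945101-169945200, 8.45%) and in an intron of Dhx29 (8.77%). Few Tet2-KO reads underlie these shares, with 0, 7 and 3 at the first window and 2, 5 and 7 in Zfp787. The Tshz2 window had 6, 8 and 10 reads and the Dhx29 window 0, 5 and 12. The Zfp787 window had 43.4, 47.4 and 58.6 RPKM in WT and 2.24, 3.55 and 4.94 RPKM in Tet2-KO libraries. The Tshz2 window, in a zinc-finger homeobox gene, had 72.0, 88.8 and 76.9 RPKM in WT and 6.72, 5.69 and 7.05 RPKM in Tet2-KO libraries. The 4 that kept most were at chr8:20946201-20946300 (66.1%), in an exon of the transporter gene Slc10a7 (58.8%), in an intron of Arhgap25 (57.9%) and in an intron of Col4a3bp (56.6%). The first of these, printed above with group 3, is soft-masked over its whole length although its middle 32 bases are unique, and had 387, 343 and 361 RPKM in WT and 245, 245 and 241 RPKM in Tet2-KO libraries. The 5 members in AW822073, a gene model on chromosome 10, were not single-copy and kept a median of 62.9%.

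Many members lay beside other listed windows of lower signal. Of the 1526 regions, 1203 were a single window and 21 had 4 or more. Of their 3052 edges, 1031 touched a CpG-dense window with partial loss, 438 a CpG-poor one, 132 a window at the floor and 1451 a window that is not listed. No edge touched a listed window with higher signal in Tet2-KO cells. Blocks of adjacent lower windows that contain a member numbered 1211, of which 337 were made of members alone, with a median of 3.00 windows and a longest block of 48 windows (4800 bp).

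The next question was whether the same windows changed when Pspc1 was deleted or Nsun2 was knocked down. The Pspc1 libraries were not used in the choice of members, whereas both siNsun2 comparisons have as controls the siNC libraries that chose the members. Each list again holds only windows that passed the authors' limit. Of the 307 windows listed for Pspc1 KO, 22 were members (7.17% of that list and 1.12% of the members). All 22 fell in Pspc1-KO cells by edgeR's quasi-likelihood test with Benjamini-Hochberg adjustment, where 81.1% of the 307 windows fell and 18.9% rose. With the libraries scaled to the listed windows themselves, 4 of the 22 were lower and 6 higher, so the direction is relative to the whole libraries. The authors had listed these windows by a test of the same libraries, all 307 passed here, and a call therefore adds nothing to the listing. The p-values below take each library as a sample, although WT IP replicates 1 and 2 differed by less than the sampling noise (chi-square per degree of freedom 0.940). The Pspc1-KO IP libraries were as close to each other, at 0.783, 1.01 and 1.01 for their 3 pairs, with none standing apart, and were kept as 3 samples, so the p-values may be too small. With the WT pair as 1 sample, a setting added after the data were seen, the highest adjusted p of the 22 windows by edgeR was 7.58e-07, compared with 6.14e-07.

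Of the 22 windows, 6 lie on chromosome 13, 4 of them single-copy and the others with 8 and 12 copies, and there Pspc1-KO IP libraries held 76.2% of the WT mean. The windows of the Plpp1 pair had 233, 224 and 241 RPKM and 282, 263 and 272 RPKM in WT IP libraries. In Pspc1-KO IP libraries they had 186, 175 and 180 RPKM and 212, 209 and 209 RPKM, log2 fold changes of -0.38 in both (adjusted p = 5.75e-08 and 1.50e-08). The groups did not overlap, and the change was smaller than in Tet2-KO cells, where 20.7% and 22.2% were left. The window beside the gene model Gm9848 (chr13:113107401-113107500) had 246, 258 and 240 RPKM in WT and 182, 187 and 193 RPKM in Pspc1-KO IP libraries (log2 fold change -0.39, adjusted p = 2.43e-08). Input over the 6 windows was low, at 2.59, 2.52 and 3.49 RPKM in WT and 1.62, 2.32 and 3.01 RPKM in Pspc1-KO libraries, from 11 to 31 reads per library. Pspc1-KO input was 80.8% of WT, and the ratio of IP to input was 81.6 in WT and 77.0 in Pspc1-KO cells. How far input contributed here was not tested.

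The chromosome 4 array supplied 8 of the 22 windows. WT IP libraries averaged 4193, 3993 and 3655 RPKM and Pspc1-KO IP libraries 2709, 2768 and 2805 RPKM, which is 70% of WT. Input moved with it. WT input libraries averaged 138, 141 and 138 RPKM and Pspc1-KO input libraries 114, 106 and 103 RPKM, which is 77.5%, from 871 to 1640 reads per library. The inputs did not overlap between the genotypes either, and the ratio of IP to input was 28.4 in WT and 25.6 in Pspc1-KO cells. The part of input in the IP difference was not tested.

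Another 3 windows lie in or beside the annotated rRNA gene CT010467.1 on chromosome 17 (from chr17:39846901 to chr17:39848400). Their Pspc1-KO IP libraries averaged 79, 76.1 and 70 RPKM, against 130, 133 and 131 RPKM in WT, while input was 95.8% of WT. The ratio of IP to input there was 1.38 in WT and 0.822 in Pspc1-KO cells, whereas it was 81.6 in WT at the chromosome 13 windows. The window at chr3:5860501-5860600 had more input than IP signal, with a mean input of 102 RPKM in both genotypes. It had 55.5, 59.1 and 60.5 RPKM in WT and 27.6, 28.4 and 28.6 RPKM in Pspc1-KO IP libraries (edgeR log2 fold change -1.06, adjusted p = 1.40e-09). The other windows lie in C230088H06Rik on chromosome 4, the chromosome 6 and 8 repeat clusters and an unannotated place on chromosome 18, with log2 fold changes of -0.30 to -0.51.

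**Figure D5:**
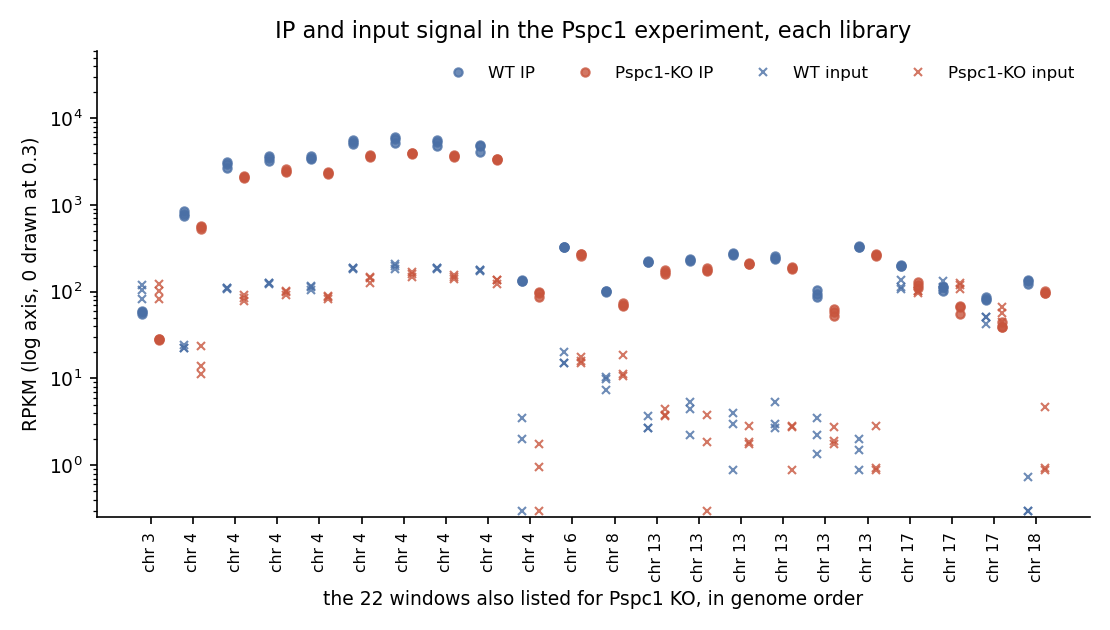
RPKM (y, log axis) at the 22 windows also listed for Pspc1 KO (x, by chromosome in genome order), 1 symbol per library, IP as dots and input as crosses, WT in blue and Pspc1 KO in red. IP dots are lower in Pspc1-KO cells at every window. Input is near or above IP at the chromosome 3 and 17 windows and far below it on chromosome 13, and at 7 of the 8 windows of the chromosome 4 array every Pspc1-KO input lies below every WT input. Values of 0 are drawn at 0.3.

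With siNsun2 in Tet2-KO cells, 5 of the 244 listed windows were members (2.05% of that list). All 5 were lower with siNsun2, as were 67.6% of the 244, while 32.4% were higher. With the libraries scaled to the listed windows themselves, 70 of the 244 were called lower and 79 higher, and 0 of the 5 members were called. The Tet2-KO siNC libraries are those that chose the members, so the values, again relative to whole libraries, are a description without a test. Of the 5 members, 3 were the last windows of the Bfar array. The window at chr16:13695801-13695900 had 501, 457 and 453 RPKM with siNC and 301, 304 and 310 RPKM with siNsun2 in Tet2-KO cells (log2 fold change -0.61), after 828 RPKM in WT siNC cells. The window at chr8:20946201-20946300 had 245, 245 and 241 RPKM with siNC and 159, 154 and 169 RPKM with siNsun2 (log2 fold change -0.60). The fifth, on chromosome 18, had 170, 154 and 156 RPKM with siNC and 107, 95 and 77.9 RPKM with siNsun2 (log2 fold change -0.77). The groups did not overlap in any of these, and all 5 had kept more than 50% of WT signal in Tet2-KO siNC cells. The share kept and the listing both use the Tet2-KO siNC libraries, so they are not independent. Of the 31 windows listed for siNsun2 in WT cells, all of which were higher (100%), 0 were members.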

How the data were processed

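MeDIP–seq libraries of WT, Tet2-KO and Pspc1-KO mES cells were analysed, 24 samples in 8 groups of 3. According to the submitters' processing notes and the study's methods, reads were trimmed with Trimmomatic 0.39, mapped to mm10 with Bowtie2 2.4.1, at 1 place where several fitted, freed of duplicates with Picard, and counted with MEDIPS in windows of 100 bp. The authors deposited read counts per window without normalization. The deposited RPKM values were computed by the authors from the counts, the window length and the library size. The relative methylation score was deposited by the authors as a fraction from 0 to 1, corrected for CpG density. The CpG number of each window was deposited too, and equalled that of the reference in 100% of windows. Only windows with a row sum of at least 10 and an adjusted p under 0.1 in the authors' edgeR comparison were listed, so lists are selected and windows outside them were not seen. Columns with the authors' fold changes, p-values and group means hold their own comparison and were not used.

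Members and gene lists were chosen with earlier results of these data known. Tet2-KO and WT siNC libraries were compared without a test, as RPKM and as log2 ratios of group means with a pseudocount of 0.1. The Pspc1 and siNsun2 lists were fitted on the deposited counts with edgeR 4.0.16 in R 4.3.3 (quasi-likelihood, library totals recovered from counts and RPKM, Benjamini-Hochberg at 0.05 over the list), and with DESeq2 1.42.0 as an alternative. The code was tested on simulated data. Annotation came from GENCODE vM21 and sequence from GRCm38.p6. Copies were exact matches of the middle 32 bases on both strands, and 61 oligonucleotides of 21 families were matched exactly, also to bisulfite-converted strands. Named regions were taken from the 8 with most windows, the 8 single-copy regions and the 8 exonic or start-proximal regions with the highest WT level, the 4 single windows that kept least and most, windows shared with the other lists, and genes of fixed lists or with many members. The chromosome 13 interval, the tandem limit and the genes described with them were chosen after values were seen. Alternatives covered scaling, read floor, pseudocount, masking and copy limits, leaving out each library, the replicate number as a block, and a pair of libraries within sampling noise counted as 1 sample where the third library of the group differed. Same-numbered libraries deviated together only in the siNsun2 comparisons (correlations of 0.12 to 0.18 in Tet2-KO and 0.34 to 0.85 in WT cells), and the block changed no call there. No input of the siNC libraries was analysed here. Intervals cover counting error only.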

Additional observations from a re-analysis of the deposited data

How the results depend on the processing

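The share of WT signal kept depends on scaling to whole libraries. When libraries were scaled to the listed windows themselves, the median log2 fold change of -2.05 became -0.17 (edgeR TMM) or -0.18 (DESeq2), and the summed Tet2-KO signal became 159% or 157% of WT, the reverse direction. These scalings assume that most listed windows do not change, and the list holds only windows called as changed. The median was -1.69 in windows with all 3 Tet2-KO libraries above 3 reads and -1.90 with a pseudocount of 1. A read floor of 10 left 1041 members. The summed share of 42.5% was 38.5% in single-copy windows and 35.9% without the 14 windows of the chromosome 4 array, an alternative added after the data were seen. Soft-masked windows made up 71.8% with regions as the unit, 79.0% with any masked base and 63.0% at 80% masked bases. Single-copy windows made up 23.7% with 24 bases and 23.9% where over 50% of 32-base words were unique, and 25.5% of members lay within 5 kb of a start. With TMM, the Pspc1 list gave 88 lower and 104 higher windows, with 4 and 6 members, the siNsun2 list in Tet2-KO cells 70 lower windows and 0 members, and that in WT cells 2 higher windows. Leaving out single libraries gave 1806 to 1957 members, a median of -2.07 to -1.98, a summed share of 41.9% to 44.7%, and, in the siNsun2 list in WT cells, 28 to 31 higher windows. Counts of 249 and 58 windows for Pspc1 KO (22 and 0 members) and of 165 and 79 for siNsun2 in Tet2-KO cells (5 and 0 members) did not move, but every window of these lists passed by selection, so this says nothing about stability. The same counts were found with a pair of alike libraries counted as 1 sample in the WT IP and siNC groups, where the other library stood apart, and the siNsun2 list in WT cells then gave 28 windows, with a WT siNsun2 pair merged too. Pspc1-KO IP and Tet2-KO siNsun2 libraries, of which none stood apart, were kept as 3 samples. With the replicate number as a block, the median was -2.10, the summed share 43.0% and the 3 lists gave 249, 165 and 31 windows in the leading direction. In the Tet2 and Pspc1 comparisons the libraries share only a number, with correlations of -0.16 to 0.03. Windows with few Tet2-KO reads limit the precision of a low share.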
